A study of Haberlea rhodopensis with 10 samples.

Results

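Slightly dehydrated leaves of the resurrection plant Haberlea rhodopensis (D75) were compared with leaves that had been dried out and watered again (R), so that leaves entering drought stood against leaves leaving it. The comparison used 4 of the 10 leaf RNA-seq libraries of the study, 2 per stage, and the 85267 of 142473 unigenes (transcripts assembled without a genome) whose FPKM reached 1 in 2 or more of the 10 libraries. The other stages were regularly watered plants (F), severe dehydration (D20) and the dry state (DT). D75 leaves came from potted plants from which water was withheld until the relative water content (RWC) was 75%. R leaves came from plants that needed at least 8 days to dry out by the study's methods, stayed dry for 10 days and recovered for a week after watering, to an RWC of 100% by the sample labels and 90% by the protocol. All plants had been propagated in vitro and grown in soil for about a year, so no library comes from plants grown outdoors. At least 4 independent plants were taken at each sampling point, but how they were divided over the 2 libraries of a stage was not stated, so the p-values measure the spread between these libraries, which may be partly technical.

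Haberlea belongs to the few flowering plants whose leaves survive the loss of nearly all their water. In leaves of such plants, drying stops growth and photosynthesis and fills the cells with protective proteins, sugars and phenolic pigments, and watering brings back photosynthesis, wall growth and repair. Among the phenolic pigments are the anthocyanins, red to blue flavonoids that are made from phenylalanine by a chain of enzymes and stored in the vacuole, where they screen light. Leaf genes also follow the circadian clock, a loop of transcription factors with morning and evening phases.

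The D75 libraries held 12192865 and 12638663 fragments on unigenes, against 8570553 and 8725660 in the R libraries, and the 10 libraries held 4522835 to 12734565. A floor of 3 fragments is 2.5e-05% and 2.4e-05% of the D75 libraries, against 3.5e-05% and 3.4e-05% of the R libraries, and this floor and the intervals given here cover counting error only. Levels are given as scaled FPKM, that is, FPKM (fragments corrected for unigene length and library size) recomputed with library sizes corrected by the trimmed mean of M-values (TMM). The 2 D75 libraries differed more from each other than the 2 libraries of any other stage, with a median absolute log2 difference of 0.93 at D75, 0.47 at R and 0.43 to 0.62 at the other stages. Transcripts of the chloroplast genome took 1.54% and 2.47% of the D75 fragments, against 0.524% and 0.711% of the R fragments, and ribosomal RNA took 6.71% and 9.85% at D75, against 5.95% and 4.32% at R. The D75 and D20 libraries also shared a raw read length that differed from that of the F, DT and R libraries, so that the stage and the sequencing cannot be told apart in D75 against R. One unigene that matches 16S rRNA, CL18166.Contig5, shows the split: it took 0% and 3.16e-05% of the D75 fragments, against 4.98% and 3.25% of the R fragments, and 0.605% to 4.16% at F and DT. Another unigene, CL18141.Contig1, went the other way, with 6.59% and 9.73% at D75, against 0.91% and 0.99% at R. It took 2.71% and 9.9% at D20, and 0.801% to 2.34% at F and DT. A unigene with the 4 D75 and D20 libraries all on one side of the other 6 is said here to follow this split.

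The leaf label was met by both stages in the mesophyll markers. The 55 unigenes of leaf mesophyll markers summed to 14000 and 14400 scaled FPKM in the D75 libraries, against 20400 and 20700 in the R libraries, and 1 of the 55, a RuBisCO small chain, was at 0 in all 4. Markers of roots summed to 879 and 1020 at D75, against 960 and 901 at R, with 4 of 220 at 0 (a Casparian strip-like protein, Scarecrow-like protein 28, ROOT PRIMORDIUM DEFECTIVE 1 and ROOT HAIR DEFECTIVE 3). Markers of flowers and pollen summed to 916 and 1550 at D75, against 1550 and 1740 at R, with 11 of 244 at 0, among them AGAMOUS and AGL11, which define carpels and ovules. Most markers of roots, flowers and pollen thus had fragments in these libraries. The few at 0 do not show that such tissue was absent. Markers of guard cells summed to 46 and 64.2 at D75, against 124 and 82.1 at R, and 3 of 39 were at 0, the channels KAT1 and KAT2 among them. Markers of vascular tissue summed to 193 and 229 at D75, against 295 and 228 at R, and those of epidermis to 38.8 and 37.2 at D75, against 70.6 and 36.9 at R. Calls among the tested markers numbered 2 higher of 29 for mesophyll (2 RuBisCO activase contigs of 1 assembly cluster), 3 lower of 175 for roots, 1 lower of 165 for flowers and pollen, 1 lower of 55 for vascular tissue, and 0 of 27 and 0 of 28 for guard cells and epidermis in edgeR. Because the leaves are a mixture of cells, fewer cells of a type and less RNA per cell cannot be told apart.

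A unigene was called at an adjusted p below 0.05 in edgeR's quasi-likelihood test, fitted to all 10 libraries and adjusted over the 85267 tested unigenes by Benjamini and Hochberg. At D75, 151 unigenes were higher than at R, which is 0.177% of those tested, and 243 were lower, which is 0.285%. Calls in the gene lists below are to be read beside these shares. In each of these 394 unigenes both D75 libraries lay beyond both R libraries, whereas over all tested unigenes both D75 libraries lay above both R libraries in 21.4%, below both in 23.3%, and on opposite sides of both in 17.7%. The test itself favours unigenes whose D75 and R libraries lie apart, so the agreement among the calls is not separate support for them. With the stricter threshold of the study's methods, a fold of at least 2 at an adjusted p of at most 0.001, 1 unigene was higher at D75 and 7 were lower. The D75 libraries lay below both F libraries in 220 of the 243 lower unigenes and above both F libraries in 137 of the 151 higher ones, against 21.8% and 20.3% of all tested. The R libraries lay above both F libraries in 117 of the 243 lower unigenes and below both in 92 of the 151 higher ones, against 24.2% and 22.8% of all tested. The choice of these unigenes by their D75 and R levels itself raises the shares at which D75 or R lies beyond F. Of the calls, 58 of the 151 and 68 of the 243 followed the split by read length, against 1.68% and 1.18% of all tested, which leaves 93 higher and 175 lower calls outside it. The number of calls depended on the libraries in the fit. Without R replicate 1 there were 2 higher and 25 lower calls, without R replicate 2 there were 7 and 67, without D75 replicate 1 there were 716 and 417, and without D75 replicate 2 there were 6124 and 8992, the one library left at a stage being assumed to vary like the others. The fit to the 4 compared libraries alone made 0 calls in edgeR, with 8290 unigenes at an unadjusted p below 0.05. Of the 394 calls, 26 stood with any 1 of the 10 libraries left out, 24 of them lower at D75 and 2 higher.

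**Figure D1:**
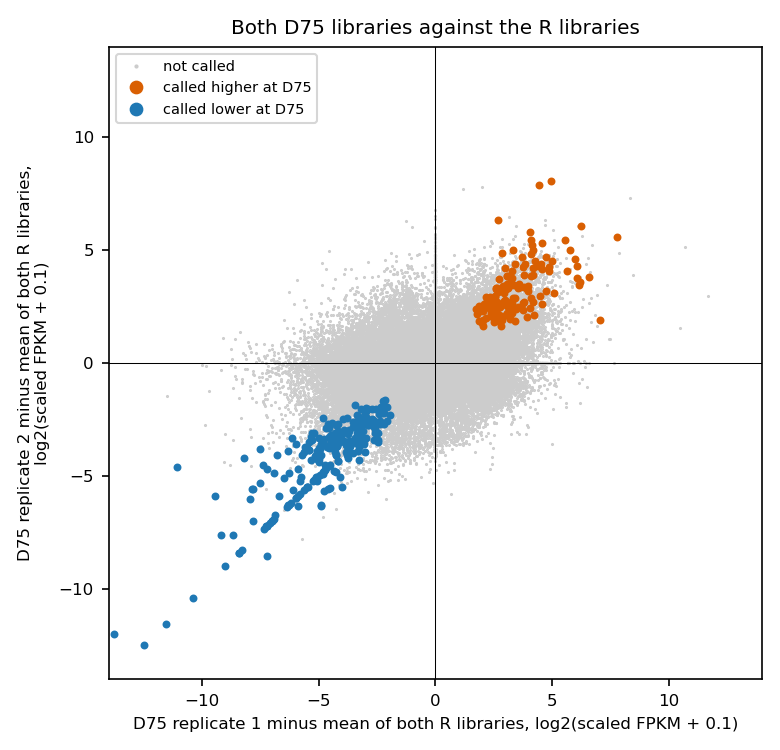
Each point is a tested unigene, placed by how far D75 replicate 1 (x axis) and D75 replicate 2 (y axis) lay from the mean of both R libraries, in log2(scaled FPKM + 0.1). The 151 unigenes called higher at D75 (orange) lie at the upper right and the 243 called lower (blue) at the lower left, while uncalled unigenes (grey) also fill the corners where the 2 D75 libraries disagree.

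The steps that turn flavonoid precursors into anthocyanins gave 4 of the 8 calls at the stricter threshold, all of them lower in leaves entering drought than in leaves leaving it, and 2 of these 4 followed the split by read length. Of 122 tested unigenes of flavonoid and anthocyanin synthesis, 10 were lower at D75 and 2 were higher, with a median log2 difference of -0.46 against 0.03 over all tested unigenes. Chalcone synthase, which builds the flavonoid skeleton, was represented by CL10198.Contig3, with 2.38 and 2.65 scaled FPKM in the D75 libraries, against 374 and 230 in the R libraries (adjusted p = 5.20e-04, log2 -6.90 ± 0.58 SE), and by CL10198.Contig2, with 2.70 and 1.91 at D75, against 167 and 159 at R (adjusted p = 5.02e-04, log2 -6.14 ± 0.45 SE). The 2 contigs belong to one assembly cluster and may share reads. Neither overlapped between the stages, and F leaves lay between them, at 50.9 and 107 for Contig3 and 20.6 and 24.8 for Contig2.

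Leucoanthocyanidin dioxygenase (Unigene38043), which makes the coloured anthocyanidins, had 0 fragments in both D75 libraries, against 54.7 and 47.5 scaled FPKM at R, so it was at least 296-fold lower at D75 with a floor of 3 fragments in each D75 library (adjusted p = 5.02e-04). It was also near 0 in the never-dried F leaves, at 0 and 0.233, and low in the dry ones, at 1.07 and 1.10 (D20) and 1.46 and 1.90 (DT), so that only the R libraries were high. Dihydroflavonol-4-reductase (Unigene47958), the enzyme before it, had 0.150 and 0 at D75, against 45.1 and 30.5 at R, a ratio of R over D75 of 458 (95% counting interval 156 to 2220, adjusted p = 5.82e-04). Flavanone 3-dioxygenase (Unigene17152), an earlier step, had 0 in both D75 libraries, against 12.5 and 11.2 at R, and was at least 63.4-fold lower (adjusted p = 0.00267). Flavonoid 3',5'-hydroxylase 2 (Unigene24301), which sets the pigment towards blue, had 0.445 and 0.0979 at D75, against 16.3 and 15.7 at R (adjusted p = 0.00468, log2 -5.80 ± 0.69 SE). In these 4 enzymes the D75 and R libraries were far apart and the 2 R libraries close together.

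The enzymes that attach sugars and the proteins that carry the pigment to the vacuole showed the same order of the stages. Anthocyanidin 3-O-glucosyltransferase 5 (Unigene876) had 0.195 and 0.520 scaled FPKM at D75, against 138 and 104 at R (adjusted p = 0.00368, log2 -8.40 ± 0.97 SE), and another anthocyanidin 3-O-glucosyltransferase (Unigene42529) had 0.396 and 1.20 at D75, against 47.0 and 42.2 at R (adjusted p = 0.00174, log2 -5.81 ± 0.61 SE). Glutathione S-transferase F11 (Unigene48210), of the phi class, had 0.0608 and 0.368 at D75, against 91.4 and 93.3 at R (adjusted p = 0.00156, log2 -8.74 ± 0.84 SE). Glutathione S-transferase F12 (CL7803.Contig2), which carries anthocyanins to the vacuole in Arabidopsis, was at 0 in both D75 and both F libraries, against 8.77 and 5.84 at R (at least 30.0-fold lower, adjusted p = 0.00727). Both transferases were already present in the dry leaf, F11 at 20.7 and 30.8 (D20) and 27.7 and 84.9 (DT). The basic helix-loop-helix protein A (Unigene6128), a factor of the family that switches on this route, had 0.0334 and 0.121 at D75, against 4.75 and 3.49 at R (adjusted p = 0.00727, log2 -5.68 ± 0.73 SE).

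The route was not lower at each of its members. UDP-glucose flavonoid 3-O-glucosyltransferase 6 was higher at D75, with 9.68 and 14.5 scaled FPKM, against 0.979 and 0.923 at R, for CL1605.Contig4 (adjusted p = 0.0149, log2 3.66 ± 0.54 SE). A second contig of it, CL1605.Contig8, had 1.54 and 2.61 at D75, against 0.108 and 0.255 at R (adjusted p = 0.0421, log2 3.46 ± 0.64 SE). Cyanidin-3-O-glucoside 2-O-glucuronosyltransferase (CL5545.Contig4) was also higher, with 10.8 and 2.06 at D75, against 0 and 0.156 at R (adjusted p = 0.0412 in edgeR). Transcription factor MYB3 (CL12025.Contig4), a relative of repressors of phenylpropanoid genes in Arabidopsis, had 80.6 and 108 at D75, against 13.9 and 9.44 at R (adjusted p = 0.0333, log2 3.01 ± 0.53 SE). Of the 10 lower calls of the list, 7 stood without R replicate 1 and 9 without R replicate 2, and all 10 stood with any other library left out. Of the 2 higher calls of the list, 0 stood without either R library. The split by read length was followed by 3 of the 10 lower and 0 of the 2 higher calls. Of the unigenes named for this route, CL10198.Contig3, Unigene47958, Unigene876 and Unigene6128 followed it, and 2 of the 7 unigenes lower by the stricter threshold, CL10198.Contig2 and Unigene38043, did not. Unigene42529, Unigene24301, CL7803.Contig2, Unigene6128 and CL5545.Contig4 were chosen after their values were seen.

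**Figure D2:**
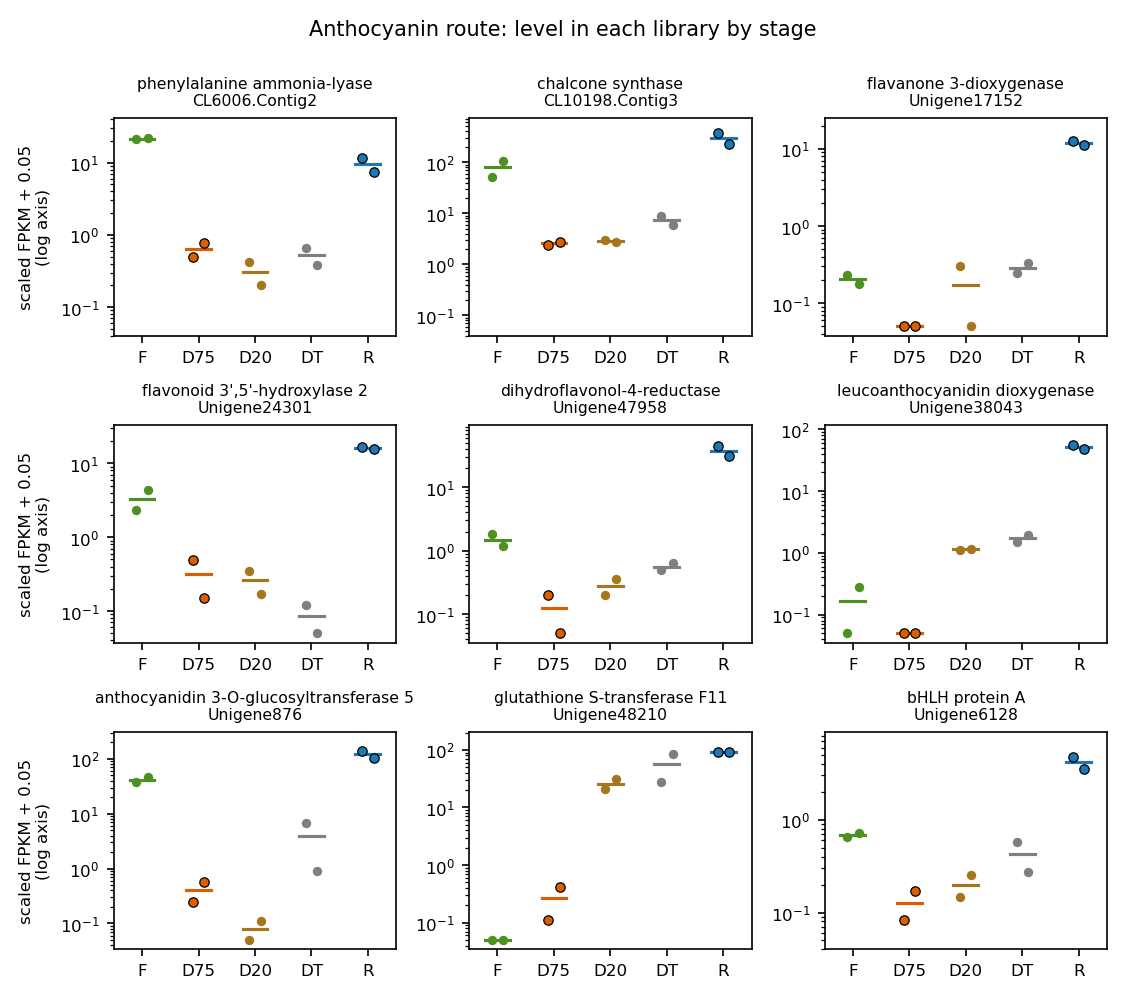
Levels of 9 genes of the anthocyanin route in scaled FPKM + 0.05 on a log axis, by stage from F to R, with a point for each of 2 libraries and a line at their mean. In each panel the D75 points (orange, outlined) lie below the R points (blue, outlined), and leucoanthocyanidin dioxygenase shows R at 54.7 and 47.5 with both D75 libraries at 0.

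The steps that feed this route from primary metabolism, and its branch to lignin, were lower at D75 too. Of 183 tested phenylpropanoid and lignin unigenes, 0 were higher at D75 and 11, from 7 assembly clusters, were lower, with a median log2 difference of -0.48. Phenylalanine ammonia-lyase, the entry enzyme, was lower in 4 of its 6 tested unigenes, all of one cluster, at log2 -4.89 to -4.02. In all 6 both D75 libraries lay below both R libraries, against 23.3% of all tested. Its CL6006.Contig2 had 0.446 and 0.720 scaled FPKM at D75, against 11.5 and 7.48 at R (adjusted p = 0.00691), while F leaves had more than either stage, at 21.4 and 21.6. Trans-cinnamate 4-monooxygenase (CL2164.Contig4), the second enzyme, had 0.681 and 2.43 at D75, against 30.7 and 20.2 at R (adjusted p = 0.0459, log2 -4.04 ± 0.77 SE). The third enzyme, 4-coumarate-CoA ligase 2 (CL15322.Contig2), had 6.43 and 6.69 at D75, against 47.8 and 39.3 at R (adjusted p = 0.0209, log2 -2.73 ± 0.43 SE). A caffeoyl-CoA O-methyltransferase of lignin synthesis (CL10887.Contig1) had 0.439 and 3.41 at D75, against 74.1 and 46.7 at R (adjusted p = 0.0320, log2 -4.98 ± 0.86 SE). The split by read length was followed by 1 of the 11 calls. Of the 11, 1 stood without R replicate 1, 2 without R replicate 2, 3 without either F library, 5 without either D20 library and 4 without either DT library.

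Phenylalanine itself comes from the shikimate pathway, whose first enzyme is phospho-2-dehydro-3-deoxyheptonate aldolase. Of 5 tested unigenes of it, 3 were lower at D75. Unigene15612 had 0 in both D75 libraries, against 42.3 and 26.7 scaled FPKM at R (at least 53.6-fold lower, adjusted p = 0.00509). CL3434.Contig1 had 0.803 and 0.507 at D75, against 22.6 and 13.3 at R, and Unigene14426 had 2.17 and 8.10 at D75, against 103 and 74.1 at R. Unigene15612 and Unigene14426 followed the split by read length. S-adenosylmethionine synthase 2 (Unigene22370), which makes the methyl donor of lignin and the precursor of ethylene, had 23.8 and 12.2 at D75, against 169 and 102 at R (adjusted p = 0.0209, log2 -2.91 ± 0.45 SE). CL6006.Contig2, CL2164.Contig4, CL3434.Contig1, Unigene14426 and Unigene22370 were chosen after their values were seen.

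Genes that build or loosen the cell wall had more lower than higher calls in leaves entering drought, as did the tested unigenes as a whole. Lower calls numbered 4 among 167 pectin-modifying enzymes, 2 among 117 expansins and xyloglucan enzymes, 8 among 557 structural wall proteins, 2 among 35 secreted class III peroxidases and 1 among 68 cellulose synthases and COBRA proteins. In the same lists 1, 0, 1, 0 and 0 were higher. Over all tested unigenes, 0.285% were lower and 0.177% were higher. The medians were -0.99, -0.86, -0.10, -1.74 and -0.54, and -0.73, -0.77, -0.02, -1.38 and -0.45 with unigenes at 0 in one stage set at their bound. Over all tested unigenes the median was 0.03, or 0 with the bounds, so that of the structural wall proteins lay close to it. UDP-D-apiose/UDP-D-xylose synthase 2, which makes the sugar donors for branched pectins, had 2.60 and 4.62 scaled FPKM at D75, against 338 and 231 at R, for CL3779.Contig2 (adjusted p = 0.00156, log2 -6.30 ± 0.64 SE), and 4 of 11 tested unigenes of this enzyme, all 4 of 1 cluster, were lower. UDP-glucose 6-dehydrogenase 2, the enzyme before it, had 0.255 and 0.221 at D75, against 13.0 and 10.7 at R, for CL325.Contig3 (adjusted p = 0.00156, log2 -5.59 ± 0.57 SE). Both contigs had all 4 D75 and D20 libraries below the other 6, and both calls stood with any 1 of the 10 libraries left out.

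Laccase-3 (CL4850.Contig2), an oxidase that links lignin units, had 0.0363 and 0.0880 scaled FPKM at D75, against 16.5 and 5.06 at R, a ratio of R over D75 of 178 (95% counting interval 60.3 to 866, adjusted p = 0.00468). Dirigent proteins, which steer the coupling of phenolic radicals, were lower in 4 of 40 tested unigenes, and dirigent protein 10 (Unigene33846) had 3.72 and 6.93 at D75, against 110 and 53.1 at R (adjusted p = 0.00838, log2 -3.94 ± 0.52 SE). Peroxidase 9 (Unigene24903) had 2.51 and 5.53 at D75, against 118 and 53.2 at R (adjusted p = 0.0149, log2 -4.42 ± 0.62 SE). In laccase-3, dirigent protein 10 and peroxidase 9 the 2 R libraries differed by more than 2-fold from each other, with R replicate 1 the higher, yet lay above both D75 libraries.

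Wall loosening genes showed the same order. Expansin-A1 (Unigene23840), which lets walls extend, had 2.18 and 1.11 scaled FPKM at D75, against 29.4 and 11.6 at R (adjusted p = 0.0311, log2 -3.62 ± 0.57 SE). A xyloglucan endotransglucosylase/hydrolase (CL2755.Contig31) had 0.857 and 1.76 at D75, against 27.1 and 16.7 at R (adjusted p = 0.0248, log2 -4.07 ± 0.67 SE). Extensin-2 (Unigene19483) had 0.781 and 1.24 at D75, against 43.2 and 56.7 at R (adjusted p = 0.0129, log2 -5.62 ± 0.81 SE), and a pectinesterase/pectinesterase inhibitor (Unigene48027) had 6.31 and 3.16 at D75, against 59.9 and 197 at R (adjusted p = 0.0220, log2 -4.76 ± 0.76 SE). Extensin-2 was low at F as well, at 0.0974 and 0.538, whereas expansin-A1 was highest at F, at 48.8 and 38.4. Tubulin alpha-1 (CL3793.Contig7), of the microtubules that guide cellulose deposition, had 2.57 and 3.02 at D75, against 17.2 and 8.47 at R (adjusted p = 0.0492, log2 -2.19 ± 0.43 SE). Cyclin-D3-1 (Unigene6214), which starts cell division, had 0.365 and 0.505 at D75, against 3.76 and 3.63 at R (adjusted p = 0.0419, log2 -3.07 ± 0.53 SE). Its list of 518 cell cycle, replication and histone unigenes had 1 higher and 1 lower call and a median log2 difference of 0.06, and the higher call, Cyclin-L1-1 (CL15055.Contig7), followed the split by read length, with 1.5 and 1.06 at D75, against 0.123 and 0.058 at R (ratio of D75 over R 14.5, 95% counting interval 4.77 to 72.3, adjusted p = 0.0496).

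Some wall genes went the other way. A 21 kDa protein (CL16435.Contig2), by its name of the pectinesterase inhibitor family, had 60.6 and 54.2 scaled FPKM at D75, against 0.508 and 0.958 at R, a ratio of D75 over R of 78.1 (95% counting interval 26.5 to 380, adjusted p = 0.00625). A polygalacturonase non-catalytic subunit (CL7645.Contig1) had 176 and 147 at D75, against 16.4 and 13.4 at R (adjusted p = 0.00900, log2 3.44 ± 0.46 SE). Tubulin beta-3 (Unigene23438) had 156 and 95.4 at D75, against 29.5 and 24.5 at R (adjusted p = 0.0459, log2 2.22 ± 0.42 SE). The split by read length was followed by 2 of the 17 lower and 0 of the 2 higher calls of the 5 wall lists. Without R replicate 1, 0 of the 17 lower and 0 of the 2 higher calls stood, and without R replicate 2, 4 lower and 0 higher calls stood. CL3779.Contig2, CL325.Contig3 and Unigene33846 were chosen after their values were seen.

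**Figure D3:**
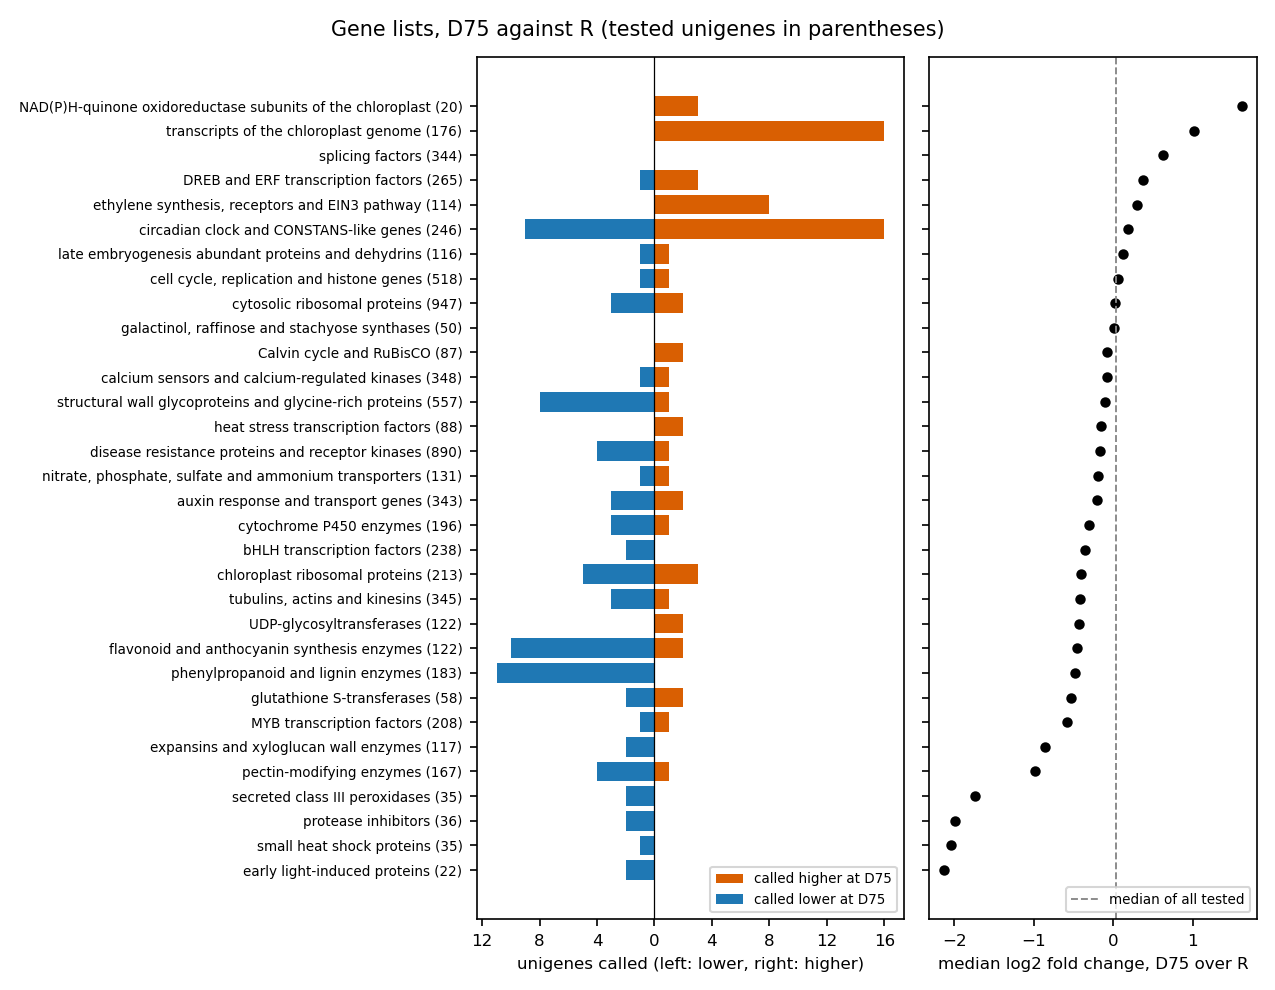
Left, the number of unigenes called lower (blue, to the left) and higher (orange, to the right) at D75 than at R in each gene list drawn, with the number tested in parentheses. Right, the median log2 difference of the list's tested unigenes, with a dashed line at the median of all tested unigenes, 0.03. The longest bars are 16 higher calls in the clock list and in the chloroplast genome and 11 lower calls in the phenylpropanoid list.

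By count, the clock list held more calls than any other list examined, but the lists differ in size. The chloroplast NAD(P)H-quinone oxidoreductase subunits had 3 higher calls among 20 tested, and flavonoid and anthocyanin synthesis had 2 higher and 10 lower among 122. Over all tested unigenes, 0.177% were higher and 0.285% were lower. Of 246 tested clock and CONSTANS-like unigenes, 16 were higher at D75 and 9 were lower, from 12 assembly clusters, with a median log2 difference of 0.19. CONSTANS-LIKE 5 (CL4661.Contig4), a zinc finger protein of the family that reads day length, had 82.2 and 97.0 scaled FPKM at D75, against 3.79 and 4.53 at R (adjusted p = 7.91e-04, log2 4.42 ± 0.39 SE), the only unigene higher at D75 by the stricter threshold. Its F libraries were close to D75, at 61.2 and 56.2, so that for this contig the R leaves stood apart from both. Another contig of it, CL4661.Contig3, had 55.9 and 53.0 at D75, against 1.51 and 2.56 at R (adjusted p = 0.00140, log2 4.73 ± 0.46 SE), with 15.7 and 15 at F. Of 14 tested CONSTANS-LIKE 5 unigenes 4, all of one cluster, were higher, while both D75 libraries lay above both R libraries in 5 of the 14 and below both in 5, with a median log2 difference of -0.22.

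Some clock genes were higher at D75, among them genes that peak in the day or evening in Arabidopsis. The response regulator APRR5 was higher in 5 of 10 tested unigenes, the 5 coming from 2 clusters. Among them, CL211.Contig3 had 14.3 and 9.28 scaled FPKM at D75, against 1.44 and 1.35 at R (adjusted p = 0.00779, log2 3.08 ± 0.40 SE). GIGANTEA was higher in 2 of 5, among them CL1117.Contig3 with 12.1 and 9.44 at D75, against 1.14 and 1.62 at R (adjusted p = 0.0106, log2 2.96 ± 0.41 SE). The Adagio proteins, blue light receptors that mark clock proteins for breakdown, were higher in 4 of 11, with calls for both Adagio protein 1 and Adagio protein 3. Among them, Adagio protein 3 (CL7669.Contig1) had 18.4 and 6.04 at D75, against 0.309 and 0.233 at R (adjusted p = 0.00900, log2 5.47 ± 0.73 SE). Both D75 libraries lay above both R libraries in all 5 tested GIGANTEA unigenes and all 11 Adagio unigenes, against 21.4% of all tested. These come from 1 and 2 assembly clusters, whose contigs may share reads. APRR7 (CL12031.Contig5) had 5.93 and 3.28 at D75, against 0.596 and 0.642 at R (adjusted p = 0.0272, log2 2.89 ± 0.48 SE), and it followed the split by read length.

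REVEILLE 1 and 7, MYB-like factors of the morning phase in Arabidopsis, were lower in 5 of 17 tested unigenes. In all 17 both D75 libraries lay below both R libraries, against 23.3% of all tested. The 17 come from 2 assembly clusters and the 5 calls from 1. LHY, the core factor of the morning phase, had 0 calls among 10 tested in edgeR, with a median log2 difference of 0.20 and both D75 libraries below both R libraries in 0 of them. REVEILLE 1 (CL4989.Contig1) had 0.430 and 0.441 scaled FPKM at D75, against 5.76 and 4.34 at R (adjusted p = 0.00900, log2 -3.52 ± 0.47 SE). CONSTANS-LIKE 4 (Unigene14425) had 58.4 and 64.4 at D75, against 433 and 422 at R (adjusted p = 0.0353, log2 -2.80 ± 0.50 SE), and CONSTANS-LIKE 2 (CL14402.Contig2) had 5.29 and 4.99 at D75, against 36.3 and 30.4 at R (adjusted p = 0.0235, log2 -2.70 ± 0.40 SE). Cyclic dof factor 3 (CL10616.Contig4), a factor that GIGANTEA and the Adagio proteins act on in Arabidopsis, had 3.42 and 4.84 at D75, against 26.6 and 15.3 at R (adjusted p = 0.0412, log2 -2.34 ± 0.43 SE). The hour at which leaves were taken is not given in the sources used here, so the stage and the hour cannot be told apart for these genes. Of the 16 higher calls, 1 stood without R replicate 1, CL4661.Contig4, and 3 without R replicate 2, and of the 9 lower calls 0 stood without either. The split by read length was followed by 1 of the 16 higher and 0 of the 9 lower calls. Apart from CL4661.Contig4 and Unigene14425, the unigenes of the clock named here were chosen after their values were seen.

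Most EIN3-binding F-box unigenes of the ethylene pathway were called higher in leaves entering drought. Ethylene is a gaseous hormone that is bound by receptors such as EIN4 and acts through the transcription factor EIN3, and the EIN3-binding F-box proteins mark EIN3 for breakdown. In a list of 114 tested unigenes of ethylene synthesis and signalling, which took receptors only where described as ethylene receptors and so left out EIN4, 8 were higher at D75 and 0 were lower, with a median log2 difference of 0.30. All 8 were EIN3-binding F-box proteins, out of 10 tested, and came from 2 assembly clusters. EIN3-binding F-box protein 1 (CL8094.Contig2) had 50.3 and 54.0 scaled FPKM at D75, against 3.51 and 3.62 at R (adjusted p = 0.00308, log2 3.87 ± 0.44 SE). EIN3-binding F-box protein 2 (CL8725.Contig4) had 72.0 and 66.2 at D75, against 4.29 and 2.52 at R (adjusted p = 0.0311, log2 4.34 ± 0.75 SE). CL8094.Contig2 stayed high in the dry leaf, at 29.7 and 47.3 (D20) and 20.4 and 20.3 (DT), while CL8725.Contig4 was at 2.96 and 10.9 (D20) and 14.2 and 3.97 (DT).

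CL8725.Contig4 was the one unigene called here among the 20 for which the study designed qPCR primers. The pair is printed as the sequence the study assigned to this unigene, written 5′ to 3′ with no letter set apart, and its position and specificity among the contigs of the cluster were not checked here.
CL8725.Contig4 forward primer: acgctcaaggtcttcaaatg
CL8725.Contig4 reverse primer: gcaacacttacggaggcac

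The receptor EIN4 was higher in 2 of 5 tested unigenes, both of 1 cluster. In all 5, which come from 2 clusters, both D75 libraries lay above both R libraries, against 21.4% of all tested. Its CL348.Contig4 had 9.06 and 4.64 scaled FPKM at D75, against 1.26 and 1.06 at R (adjusted p = 0.0307, log2 2.56 ± 0.44 SE). The ethylene response factor ERF1B (CL5185.Contig3), a target of EIN3 in Arabidopsis, had 12.1 and 16.2 at D75, against 2.15 and 1.78 at R (adjusted p = 0.0200, log2 2.84 ± 0.44 SE), and 8.93 and 8.40 at F. The related factor CRF2 (CL14238.Contig2) had 3.79 and 49.3 at D75, against 0.529 and 0.499 at R (adjusted p = 0.0378, log2 5.67 ± 1.02 SE), so that the 2 D75 libraries differed by more from each other than the lower of them did from R. Of the 8 calls of the list, 0 stood without either R library, 4 without either F library and 5 without any D20 or DT library. The split by read length was followed by 2 of the 8 calls, CL8094.Contig2 among them, and by 1 of the 2 EIN4 calls, CL348.Contig4. CL8094.Contig2 and CL348.Contig4 were chosen after their values were seen.

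**Figure D4:**
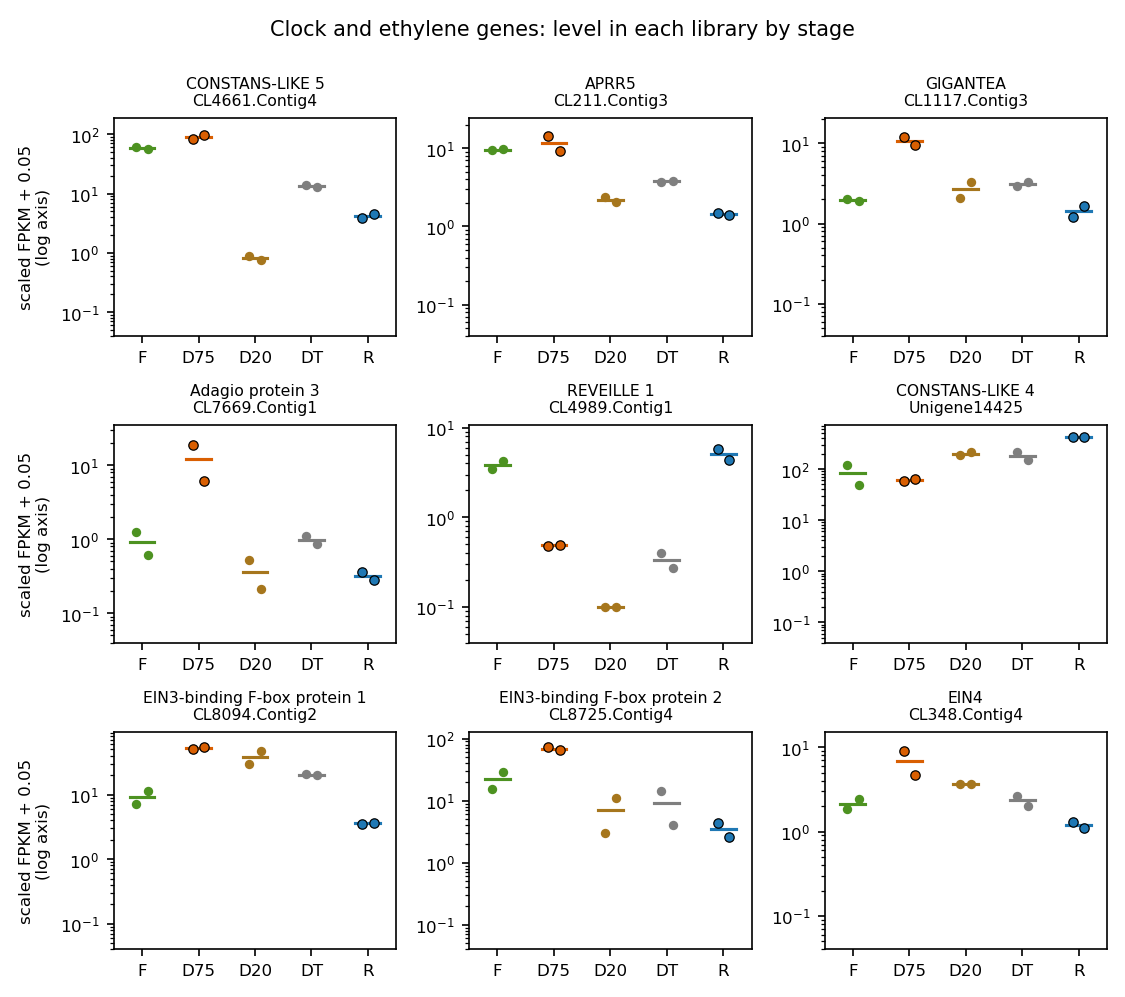
Levels of 6 clock and 3 ethylene genes in scaled FPKM + 0.05 on a log axis, by stage from F to R, with a point for each of 2 libraries and a line at their mean. The D75 points (orange, outlined) lie above the R points (blue, outlined) except in REVEILLE 1 and CONSTANS-LIKE 4, where they lie below.

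Some RNA-binding and nucleolar proteins were called higher at D75, in families chosen after values were seen. Glycine-rich RNA-binding proteins, which bind messenger RNA under cold and drought and in Arabidopsis also cycle with the clock, were higher in 6 of 133 tested unigenes and lower in 0, with a median log2 difference of 0.64, and 3 of the 6 followed the split by read length. Both D75 libraries lay above both R libraries in 56 of the 133 and below both in 14, against 21.4% and 23.3% of all tested. GRP2A (CL1671.Contig1) had 241 and 35.1 scaled FPKM at D75, against 1.83 and 3.24 at R (adjusted p = 0.0114, log2 5.76 ± 0.81 SE). The 2 D75 libraries of GRP2A were far apart but both above R, and the other 6 libraries stayed at 2.96 to 7.69. GRP1A (Unigene46826) had 62.1 and 52.3 at D75, against 12.7 and 8.40 at R (adjusted p = 0.0213, log2 2.44 ± 0.39 SE). Subunit 4 of the H/ACA complex, which modifies ribosomal RNA, was higher in 3 of 12 tested unigenes, all 3 of 1 cluster. Among them, CL2750.Contig1 had 19.2 and 15.5 at D75, against 1.93 and 3.16 at R (adjusted p = 0.0213, log2 2.77 ± 0.44 SE). The RNA helicase DEAD-box 42 (CL17614.Contig2) had 28.3 and 20.8 at D75, against 2.13 and 1.74 at R (adjusted p = 0.00180, log2 3.66 ± 0.38 SE) and followed the split by read length. Splicing factors had 0 calls among 344 tested in edgeR, but both D75 libraries lay above both R libraries in 42.7% of them, against 21.4% of all tested, with a median log2 difference of 0.63. Without R replicate 1 the adjusted p was 0.261 for GRP2A, 0.361 for CL2750.Contig1 and 0.0684 for the helicase. Unigene46826, CL2750.Contig1 and CL17614.Contig2 were chosen after their values were seen.

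Other genes with large higher calls at D75 are known from signalling and detoxification. A glutathione S-transferase (CL1811.Contig5), of the enzymes that couple glutathione to reactive compounds, had 186 and 140 scaled FPKM at D75, against 7.49 and 7.90 at R (adjusted p = 0.00727, log2 4.39 ± 0.56 SE), and a second one (Unigene32686) had 87.5 and 98.0 at D75, against 12.2 and 10.3 at R (adjusted p = 0.0412, log2 3.04 ± 0.56 SE). The 58 tested glutathione S-transferases had 2 higher and 2 lower calls and a median log2 difference of -0.53. Both D75 libraries lay below both R libraries in 50% of them and above in 12.1%, against 23.3% and 21.4% of all tested. The ubiquitin ligase ATL74 (Unigene1255) had 39.5 and 36.0 at D75, against 1.64 and 1.59 at R (adjusted p = 0.00156, log2 4.54 ± 0.46 SE), and the calcium-binding protein CML44 (CL4108.Contig2) had 38.2 and 24.6 at D75, against 0.696 and 2.06 at R (adjusted p = 0.00814, log2 4.49 ± 0.59 SE). CML44 was the lowest in the dry leaf, at 0.166 and 0.341 (D20), while F leaves had 18.1 and 8.87.

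Growth regulators were among them as well. Auxin-induced protein X10A (Unigene47605), of the small auxin-up RNA family, had 60.4 and 44.4 scaled FPKM at D75, against 2.49 and 1.32 at R (adjusted p = 0.0333, log2 4.78 ± 0.83 SE). An ARGOS-type protein (Unigene10436), which controls organ size, had 16.5 and 9.86 at D75, against 0.214 and 0.202 at R, a ratio of D75 over R of 65.1 (95% counting interval 17.8 to 541, adjusted p = 0.0319). An F-box protein (CL4094.Contig6) had 30.4 and 0.747 at D75, against 0.132 and 0.124 at R (adjusted p = 0.0482, log2 6.89 ± 1.33 SE), so that its fold rested mainly on D75 replicate 1. RuBisCO activase (CL10406.Contig2), which keeps the carbon-fixing enzyme open, had 14.5 and 12.6 at D75, against 3.64 and 3.50 at R (adjusted p = 0.0453, log2 1.92 ± 0.36 SE). This contig and CL10406.Contig3 of the same cluster were the only calls among 87 tested Calvin cycle and RuBisCO unigenes, whose median log2 difference was -0.08. The whole list summed to 15900 and 16100 at D75, against 21700 and 22100 at R. Without R replicate 1 none of these calls stood, the adjusted p being 0.0684 for ATL74, 0.195 for CL1811.Contig5, 0.168 for CML44 and 0.438 for RuBisCO activase.

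Some calls in both directions were genes with more transcript in the dry leaf than at R. All 4 D20 and DT libraries lay above both R libraries in 60 of the 151 unigenes higher at D75 (39.7%) and in 15 of the 243 lower ones (6.17%). Over all tested unigenes the share was 21.8%, and the choice of unigenes by their R level itself affects the shares among the calls. The 15 included early light-induced proteins, a CYSTM1 peptide and the factor TGA2, each high in the dry leaf, lower a week after watering and lowest at F and D75. Early light-induced proteins bind chlorophyll and protect the photosystems, and 2 of 22 tested were lower at D75 and 0 higher, with a median log2 difference of -2.13. In 16 of the 22 both D75 libraries lay below both R libraries, against 23.3% of all tested. Unigene19910 had 0 and 1.46 scaled FPKM at D75, against 29.3 and 28.5 at R (adjusted p = 0.0149, log2 -5.31 ± 0.78 SE), with 57.7 and 66.4 at D20 and 789 and 667 at DT. Unigene32089 had 1.43 and 7.99 at D75, against 44.3 and 42.7 at R (adjusted p = 0.0497, log2 -3.22 ± 0.63 SE). The most abundant of the 3 named, Unigene32083, was not called, with 62.2 and 172 at D75, against 112 and 185 at R (adjusted p = 0.789, log2 -0.34 ± 0.55 SE).

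CYSTM1 family protein A (CL3154.Contig1), a small cysteine-rich membrane peptide, had 1.19 and 4.19 scaled FPKM at D75, against 61.3 and 55.8 at R (adjusted p = 0.0106, log2 -4.45 ± 0.62 SE), with 1400 and 1480 at D20 and 0.968 and 0.268 at F. Transcription factor TGA2 (Unigene2049), of defence and detoxification, had 0.214 and 0.712 at D75, against 7.62 and 9.14 at R (adjusted p = 0.0346, log2 -4.18 ± 0.74 SE), with 443 and 516 at D20. The kinase OXI1 (CL10820.Contig4), which responds to reactive oxygen, had 0.627 and 1.52 at D75, against 5.70 and 7.34 at R (adjusted p = 0.0387, log2 -2.61 ± 0.47 SE), with 90.9 and 66.7 at D20. SRO2 (Unigene13019), a protein related to poly(ADP-ribose) polymerases, had 0 at D75, against 1.14 and 1.34 at R (at least 9.24-fold lower, adjusted p = 0.00384), and it kept its call with any 1 of the 10 libraries left out.

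Heat stress factor B-2b, a repressor of the heat response, had the reverse order although it was also high in the dry leaf. Unigene23918 had 11.3 and 17.9 scaled FPKM at D75, against 2.56 and 3.46 at R (adjusted p = 0.0333, log2 2.27 ± 0.40 SE), with 73 and 69.7 at DT. Unigene29101 had 10.3 and 11.8 at D75, against 1.19 and 0.838 at R (adjusted p = 0.0394, log2 3.41 ± 0.62 SE). Without R replicate 1 the adjusted p was 0.134 for Unigene19910, 0.333 for Unigene32089, 0.109 for CL3154.Contig1, 0.244 for Unigene2049, 0.252 for CL10820.Contig4 and 0.436 for Unigene23918. CL3154.Contig1, Unigene2049, CL10820.Contig4 and Unigene13019 were chosen after their values were seen.

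**Figure D5:**
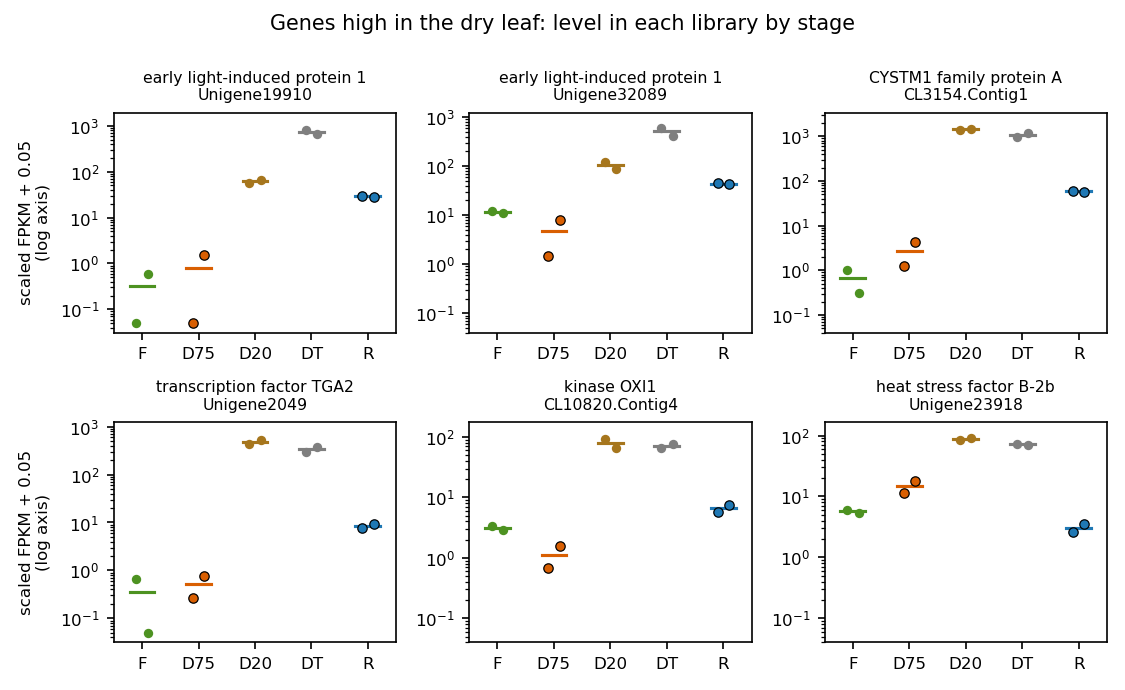
Levels of 6 genes that are high at D20 or DT, in scaled FPKM + 0.05 on a log axis, by stage from F to R, with a point for each of 2 libraries and a line at their mean. In 5 of the panels the R points (blue, outlined) lie above the D75 points (orange, outlined) and below the dry stages, and in heat stress factor B-2b D75 lies above R.

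Most of the classical protectants of drying were not told apart between the stages. Late embryogenesis abundant proteins and dehydrins, which shield proteins and membranes, had 1 higher and 1 lower call among 116 tested and a median log2 difference of 0.12. The higher one was Dehydrin Rab16C (Unigene28027), with 62.0 and 49.3 scaled FPKM at D75, against 11.5 and 11.2 at R (adjusted p = 0.0434, log2 2.29 ± 0.43 SE), and the lower one, LEA protein D-34 (Unigene2635), had 0 and 0.111 at D75, against 3.53 and 3.03 at R (ratio of R over D75 65.5, 95% counting interval 11.1 to 2650, adjusted p = 0.0476). Both calls followed the split by read length. Galactinol, raffinose and stachyose synthases, of the protective sugars, had 0 calls among 50 in edgeR and a median of 0.01. Galactinol synthase 1 (CL2862.Contig8) had 4060 and 476 at D75, against a mean of 494 ± 22.3 at R (SD, n = 2, adjusted p = 0.201, log2 2.20 ± 0.74 SE), so that D75 replicate 1 was high and D75 replicate 2 was at the R level.

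Small heat shock proteins had 0 higher and 1 lower call among 35, with a median of -2.04, or -0.94 with unigenes at 0 in one stage set at their bound. The lower one (Unigene19641, 17.1 kDa class II) had 0 at D75, against 2.42 and 2.74 at R (at least 8.48-fold lower, adjusted p = 0.0412), and it followed the split by read length. The ABA receptors, SnRK2 kinases and ABA factors (104 tested), the protein phosphatases 2C (305), the NAC factors (149), the WRKY factors (203) and the aquaporins (50) had 0 calls in either direction in edgeR, with medians of -0.03, 0.05, 0.06, 0.06 and -0.97. At this depth and with 2 libraries per stage a missing call does not show that levels were the same. Of the 20 unigenes of the study's primer table, 19 were not called, among them LEA proteins CL12215.Contig1 (2.90 and 24.7 at D75, against 36.1 and 44.8 at R, adjusted p = 0.352) and protochlorophyllide reductase CL15566.Contig1 (49.1 and 73.1 at D75, against 191 and 103 at R, adjusted p = 0.252).

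Transcripts of the chloroplast genome had calls at D75 in the higher direction, and the nuclear subunits of the photosystems and electron transport had none. The nuclear photosystem and electron transport subunits had 0 calls among 111 tested in edgeR, with a median log2 difference of -0.69 and both D75 libraries below both R libraries in 57.7%, against 23.3% of all tested. Photosystem II 10 kDa polypeptide (Unigene1712), the most abundant of them, had 5280 and 5740 scaled FPKM at D75, against 9170 and 8050 at R (adjusted p = 0.596, log2 -0.64 ± 0.57 SE). Of 176 tested transcripts of the chloroplast genome 16 were higher at D75 and 0 were lower, with a median of 1.02, or 0.87 with unigenes at 0 in one stage set at their bound. Photosystem II protein CP43 (Unigene335) had 5.33 and 46.5 at D75, against 0.0764 and 0.0721 at R (adjusted p = 0.00918, log2 8.40 ± 1.13 SE), with 270 and 85.9 at D20. Its partner CP47 (CL1044.Contig3) had 6.97 and 23.4 at D75, against 0.287 and 0.354 at R (adjusted p = 0.00838, log2 5.56 ± 0.73 SE), and cytochrome b6 (Unigene6610) had 13.6 and 34.2 at D75, against 0.565 and 0.828 at R (adjusted p = 0.0112, log2 5.08 ± 0.71 SE). These 3, and 15 of the 16 calls in all, followed the split by read length. How much of this comes from the libraries was not tested. Without R replicate 1, 0 of the 16 calls stood, and without R replicate 2, 1 stood.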

How the data were processed

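Leaf RNA was sequenced at 5 stages with 2 libraries each. The authors deposited fragment counts and FPKM per unigene. They trimmed reads with SeqPrep and Sickle, assembled unigenes with Trinity and named RSEM for abundances. The aligner and the versions are not given in the sources used here, and no reference genome was used. The deposited FPKM are the counts divided by unigene length and library total. The deposited counts were whole numbers and entered the tests as they were. The number of unused value columns was 0.

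The 85267 unigenes whose FPKM reached 1 in 2 or more libraries entered edgeR 4.0.16 (R 4.3.3) with TMM scaling, glmQLFit and glmQLFTest over all 10 libraries, with 1 coefficient per stage (residual degrees of freedom 5, prior 7.403 at the median). Log2 differences are D75 over R. Standard errors are the log2 difference over the root of F. Adjustment over all tested unigenes followed Benjamini and Hochberg. A fold against a stage at 0 fragments is a bound with 3 fragments in each of its libraries, and stages with 1 to 3 fragments in all have an exact 95% counting interval. The test was tested on simulated counts, where it found the large changes, missed most of the smallest, and made more false calls than the nominal rate.

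The 72 gene lists are patterns on the annotation text. Genes named are every DEG with a description, the 15 largest differences in each direction among calls with a mean of at least 5 scaled FPKM and a description that names a function (1 per cluster and description), of each list the 2 called members of highest mean level (or 1 uncalled), and the 20 unigenes of the primer table. Members and lists were chosen with earlier results of these data known.

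Alternatives were DESeq2 1.42.0, edgeR's exact test, limma 3.58.1 on log2(FPKM + 1) and log2(FPKM + 0.1), median-of-ratios scaling, other filters, a replicate block, the 4 libraries alone, sums per cluster, removal of chloroplast genome and rRNA unigenes, thinning (random seed 11) and each library left out. Leaving out the unigenes that followed the read length split was added after the data were seen. Figures were drawn with matplotlib 3.10.9 and tables built with numpy 2.4.6, scipy 1.17.1 and pandas 2.3.3, under Python 3.11.15.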

Additional observations from a re-analysis of the deposited data

How the results depend on the processing

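The counts of 151 higher and 243 lower calls at an adjusted p below 0.05, and of 1 higher and 7 lower unigenes by the stricter threshold, moved with the processing. Higher and lower calls numbered 2558 and 2042 without the filter on low FPKM, 78 and 124 with filterByExpr, 1087 and 1524 under the exact test of edgeR, 832 and 1185 under DESeq2, 283 and 484 with limma on log2(FPKM + 1), 84 and 124 with limma on log2(FPKM + 0.1), 398 and 575 after thinning, and 0 and 0 with only the 4 libraries of D75 and R. By the stricter threshold the counts were 335 and 384 without the filter, 0 and 0 with filterByExpr, 170 and 255 with DESeq2, 151 and 279 with the exact test, 19 and 48 after thinning, 2 and 11 with sums per assembly cluster, and 0 and 0 with the 4 libraries. Without the unigenes that set D75 and D20 apart there were 93 higher and 175 lower calls, and 1 and 2 by the stricter threshold. The remaining settings moved neither count of calls by over 1.5 times. The cause of these shifts was not tested, except that filterByExpr tested 67000 and the fit without a filter 141376 unigenes.

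With 1 library left out, calls ran from 2 to 6124 (higher) and 25 to 8992 (lower), and by the stricter threshold from 0 to 927 and 0 to 1578. The lowest counts came without R replicate 1 and the highest without D75 replicate 2, and leaving out any F, D20 or DT library gave 51 to 98 higher and 120 to 127 lower calls. Whether replicate numbers pair the stages is not known. Differences between replicates 1 and 2 correlated across unigenes at -0.02 between D75 and R and at -0.15 to 0.07 over all pairs of stages, so no pairing was seen in them. With a replicate block there were 139 higher and 280 lower calls, 341 of them shared, and 0 and 10 by the stricter threshold. Of the 155 called unigenes that were examined singly, 0 changed direction under any setting, and the number that kept their call was 152 with DESeq2, 138 with the block, 135 and 84 with limma on log2(FPKM + 1) and log2(FPKM + 0.1), 98 with filterByExpr, 45 without R replicate 2, 23 without R replicate 1 and 0 with the 4 libraries. A floor of 3 fragments and 2 libraries per stage limit what can be called.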

Other observations

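Some unigenes separated the libraries completely. In 30 of the 243 lower calls the 4 D75 and D20 libraries had 0 fragments while each of the other 6 had at least 1, a pattern seen in 0.115% of all tested unigenes. Among them were Trypsin inhibitor 2 (CL12949.Contig1), a defence protein, with 0 in both D75 libraries, against 33.7 and 34 scaled FPKM at R (at least 124-fold lower, adjusted p = 5.02e-04 in edgeR) and 23.4 to 31.8 at F and DT. Bark storage protein A (Unigene43767) had 0 at D75, against 13.8 and 15.5 at R, and Beta-amylase (Unigene19132) had 0 at D75, against 7.51 and 8.00 at R. The chloroplast-type ribosomal proteins 30S S16 (Unigene28610) and 50S L1 (Unigene43314) had 0 at D75, against 16.5 and 10.0 at R for S16 and 5.40 and 4.46 at R for L1. Unigene38945, with no description, had 0 at D75, against 724 and 455 at R (at least 988-fold lower). A part of the sequencing in these values was not tested. Unigene43314 and Unigene38945 were chosen after their values were seen.

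Some defence proteins were lower at D75 outside that pattern. Of 36 tested protease inhibitors 2 were lower at D75 and 0 higher, with a median log2 difference of -1.99. One of the 2 was Trypsin inhibitor 2, which has that pattern. The other, miraculin (CL16466.Contig1), lay outside it, with 93.8 and 196 scaled FPKM at D75, against 2300 and 1170 at R (adjusted p = 0.0398, log2 -3.58 ± 0.66 SE). Polyphenol oxidases, which brown phenolics, were lower in 2 of 8 tested unigenes. In 7 of the 8 both D75 libraries lay below both R libraries, against 23.3% of all tested. Trans-resveratrol di-O-methyltransferase (CL10053.Contig1) had 0 at D75, against 18.7 and 8.37 at R (at least 79.1-fold lower, adjusted p = 0.00205), and was at most 0.155 at the other stages. Organ-specific protein S2 (Unigene68817) had 0 and 1.07 at D75, against 138 and 35.2 at R (ratio of R over D75 176, 95% counting interval 59.6 to 856, adjusted p = 0.0412), while F leaves had 230 and 198.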
